A study of Mus musculus with 3 samples.

Results

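The miR-181 family was followed in the tibialis anterior (TA) muscle of the mouse through the first days after cardiotoxin (CTX) was injected. CTX comes from cobra venom and kills muscle fibers, which are then rebuilt by resident stem cells. The family members are 6 of the 1138 mature miRNAs listed in the miRNA-Seq data: mmu-miR-181a-5p, mmu-miR-181b-5p, mmu-miR-181c-5p and mmu-miR-181d-5p, and the 3p arms mmu-miR-181a-1-3p and mmu-miR-181a-2-3p, written without the species prefix from here on. They were taken by name, and all 6 were listed in each library. The family was chosen by the read counts of these same libraries, in which its 5p and 3p arms differed in course, so the levels and fold changes are given as a description and without p-values. All groups were wild type C57BL/6 mice, labelled as 10 weeks old, with TA muscle taken at days 0, 1 and 3. The study describes day 0 as uninjured, the labels name saline as the control injection, and whether the day 0 muscles received saline is not stated. The labels give CTX as 10 mM in a volume of 30 mL, whereas the methods give the same numbers in μM and μl. Every library was a pool of 4 samples and each day had 1 library, so no difference has a replicate check and the spread between mice is unknown.

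A miRNA gene is transcribed as a long precursor, and the hairpin in it is cut by Drosha and Dicer into a duplex of a 5p and a 3p strand. Usually one strand is kept in an Argonaute protein, where its seed, bases 2 to 8, pairs with target mRNAs, and most of the other strand is degraded. The miR-181 family is best known from lymphocytes, where miR-181a sets the sensitivity of T cell receptor signalling, and miR-181 has been linked to myoblast differentiation, where it represses the homeobox protein Hox-A11. miR-181b is known in endothelial cells as an inhibitor of NF-κB signalling.

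The mature sequences, from RefSeq on GRCm38.p6, show why the 5p and 3p arms carry different information. All 4 of the 5p members share the seed in capitals, and no other name among 1679 mature mouse miRNAs in that table has it.
miR-181a-5p: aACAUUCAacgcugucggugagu
miR-181b-5p: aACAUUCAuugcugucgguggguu
miR-181c-5p: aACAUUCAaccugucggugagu
miR-181d-5p: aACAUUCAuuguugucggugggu
Counted from the 5′ end of miR-181a-5p, miR-181d-5p differs from it by the substitutions A9U, C10U, C12U and A21G. miR-181b-5p differs from miR-181a-5p by A9U, C10U and A21G and has 1 more base at the 3′ end. miR-181c-5p is 1 base shorter than miR-181a-5p and has no substitution. From miR-181b-5p to miR-181d-5p there is 1 substitution, C12U, besides the base at the end. Reads of the 5p members differ at so few positions that mismatches or trimmed ends could move reads between them, and how the authors resolved such reads is not stated.

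The 3p arms do not share that seed, and those of miR-181a identify the locus. The following lines give both members and, for comparison, miR-181c-3p, with the seed in capitals.
miR-181a-1-3p: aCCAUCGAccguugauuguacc
miR-181a-2-3p: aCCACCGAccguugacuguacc
miR-181c-3p: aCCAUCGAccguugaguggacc
From miR-181a-1-3p to miR-181a-2-3p the substitutions are U5C, which lies in the seed, and U16C. miR-181a-1-3p shares its seed with miR-181c-3p, from which it differs by U16G and U19G.

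The same 5p arm is thus cut from a pair of hairpins, and only the 3p arm tells them apart. The hairpins are shown with both mature arms in capitals.
Mir181a-1: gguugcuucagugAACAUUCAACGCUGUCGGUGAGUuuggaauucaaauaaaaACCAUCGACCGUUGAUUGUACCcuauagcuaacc
Mir181a-2: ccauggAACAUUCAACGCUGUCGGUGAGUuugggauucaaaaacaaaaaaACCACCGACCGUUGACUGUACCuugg
Mir181a-1 lies at chr1:137966455-137966541 on the plus strand of GRCm38.p6, followed after 97 bases by Mir181b-1. In the GENCODE M21 annotation of GRCm38, both lie in an intron of the noncoding transcript Gm4258 and overlap an exon of the lincRNA A430106G13Rik on the same strand. Mir181a-2 lies at chr2:38852735-38852810 on the plus strand, and Mir181b-2 follows after 1019 bases. Both lie in an intron of Nr6a1, which encodes a nuclear receptor and is on the opposite strand. Mir181c and Mir181d lie 85 bases apart on the minus strand of chromosome 8, in an intron of Nanos3 on the same strand, at chr8:84178873-84178961 and chr8:84178716-84178787. miR-181b-5p is likewise shared by Mir181b-1 and Mir181b-2, whereas miR-181c-5p and miR-181d-5p each have a single locus.

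Sequencing depth was 8507580, 6421056 and 9795076 reads for days 0, 1 and 3. Levels are given as CPM, the reads of a miRNA per 1000000 reads of its library, with 95% Wilson intervals that cover counting error only. The mature members are 22 to 24 nucleotides long, and levels were compared between members without scaling for length. The 6 members together took 1.20%, 1.81% and 1.04% of these reads.

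In uninjured muscle miR-181a-5p was the main member of the family. It had 87582 reads on day 0, or 10295 CPM (10227 to 10363), and ranked 16 by reads among all miRNAs. miR-181b-5p was at 697 CPM (679 to 715), miR-181c-5p at 541 CPM (525 to 557) and miR-181a-2-3p at 457 CPM (443 to 472). The lowest members were miR-181d-5p at 41.5 CPM (37.4 to 46.1) and miR-181a-1-3p at 13.4 CPM (11.2 to 16.1). No neighbours in this order had overlapping intervals on day 0. On day 1 the order was miR-181a-5p, miR-181b-5p, miR-181c-5p, miR-181d-5p, miR-181a-2-3p and miR-181a-1-3p, again without overlap. On day 3 the intervals of miR-181a-1-3p (50.8 to 60.1 CPM) and miR-181a-2-3p (46.4 to 55.3 CPM) overlapped, and those of the other neighbours did not.

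**Figure D1:**
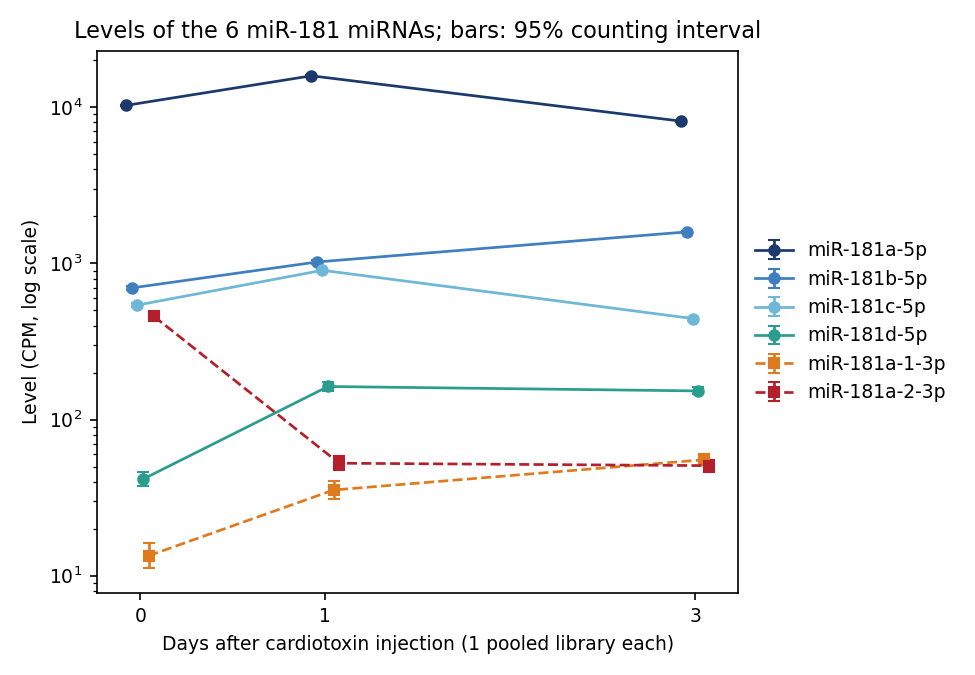
Level in CPM (log axis) of each of the 6 miRNAs in the pooled libraries of days 0, 1 and 3, with 95% counting intervals and points offset sideways for clarity. miR-181a-2-3p is at 457 CPM on day 0 and 52.5 CPM on day 1 and meets miR-181a-1-3p on day 3, while miR-181a-5p stays the highest member throughout.

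Scaled to library totals, the most abundant member, miR-181a-5p, was highest on day 1 and lowest on day 3. Its reads numbered 87582, 102216 and 79819, which gave 10295, 15919 and 8149 CPM for days 0, 1 and 3. The log2 fold change against day 0 was 0.63 (95% Wald interval 0.62 to 0.64, counting error only) for day 1 and -0.34 (-0.35 to -0.32) for day 3. Neither reached a 2-fold change, the threshold of the study. The sign on day 1 and the 2-fold call on day 3 depended on this scaling, as described below. With TMM and median-of-ratios factors miR-181a-5p was below day 0 on day 1 (-0.32 and -0.41), still within 2-fold. On day 3 it was over 2-fold lower with these factors (-1.26 and -1.46). In a pooled whole muscle, fewer cells that contain a miRNA cannot be told apart from less of it per cell.

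miR-181c-5p, which lacks 1 base of miR-181a-5p, had the same course. It was at 541, 904 and 443 CPM for the same days, with log2 fold changes of 0.74 (0.68 to 0.80) and -0.29 (-0.35 to -0.23). The difference from the log2 fold change of miR-181a-5p was 0.11 (0.05 to 0.17) for day 1 and 0.05 (-0.01 to 0.11) for day 3. From day 1 to day 3 the log2 fold change was -1.03 (-1.08 to -0.97) for miR-181c-5p and -0.97 for miR-181a-5p, and of the 6 members only miR-181c-5p passed 2-fold between these libraries.

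miR-181b-5p followed miR-181a-5p on day 1 and parted from it on day 3. Its reads numbered 5927, 6558 and 15599, at 697, 1021 and 1593 CPM. The log2 fold change was 0.55 (0.50 to 0.60) for day 1 and 1.19 (1.15 to 1.24) for day 3. Relative to miR-181a-5p, which comes from the same pair of clusters, this was a difference of -0.08 (-0.13 to -0.02) for day 1 and 1.53 (1.48 to 1.58) for day 3, a 2.89-fold shift in their ratio on day 3.

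miR-181d-5p was the 5p member with the highest log2 fold change on both days, an order among members that the scaling of the reads does not alter. Its 353, 1045 and 1493 reads for days 0, 1 and 3 gave 41.5, 163 and 152 CPM. The log2 fold change was 1.97 (1.80 to 2.15) for day 1 and 1.88 (1.71 to 2.04) for day 3. The levels on days 1 and 3 had overlapping intervals (153 to 173 and 145 to 160 CPM). The log2 fold change of miR-181d-5p was above that of its neighbour in the genome, miR-181c-5p, by 1.23 (1.05 to 1.41) for day 1 and 2.16 (1.99 to 2.34) for day 3.

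The mix of the 5p members therefore shifted mainly on day 3. The share of miR-181a-5p in their reads was 88.9% (88.8 to 89.1), 88.4% (88.2 to 88.6) and 78.8% (78.6 to 79.1) for days 0, 1 and 3. The share of miR-181b-5p was 6.02%, 5.67% and 15.4%, and that of miR-181d-5p was 0.359%, 0.904% and 1.47%. miR-181c-5p stayed between 4.29% and 5.02%. The sum of the 5p members, which share the seed, amounted to 11574, 18007 and 10337 CPM, which is a log2 fold change of 0.64 (0.63 to 0.65) for day 1 and -0.16 (-0.18 to -0.15) for day 3.

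The 3p arms of miR-181a went in opposite directions, under each scaling that was run. The arm from chromosome 2, miR-181a-2-3p, had 3890, 337 and 496 reads for days 0, 1 and 3. From 457 CPM before injury it was 8.71-fold lower a day later, at 52.5 CPM (47.2 to 58.4), and 9.03-fold lower by day 3, at 50.6 CPM. The log2 fold changes were -3.12 (-3.28 to -2.96) and -3.17 (-3.31 to -3.04). Among miRNAs with at least 100 reads in either library of a comparison, it was the 2nd lowest of 296 by fold change on day 1 and the lowest of 340 on day 3.

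The arm from chromosome 1, miR-181a-1-3p, had 114, 227 and 541 reads, at 13.4, 35.4 and 55.2 CPM, which was 2.64-fold higher on day 1 and 4.12-fold higher on day 3. The log2 fold changes were 1.40 (1.08 to 1.72) and 2.04 (1.75 to 2.33). Between the arms, the difference in log2 fold change was 4.52 (4.16 to 4.88) for day 1 and 5.22 (4.90 to 5.54) for day 3.

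**Figure D2:**
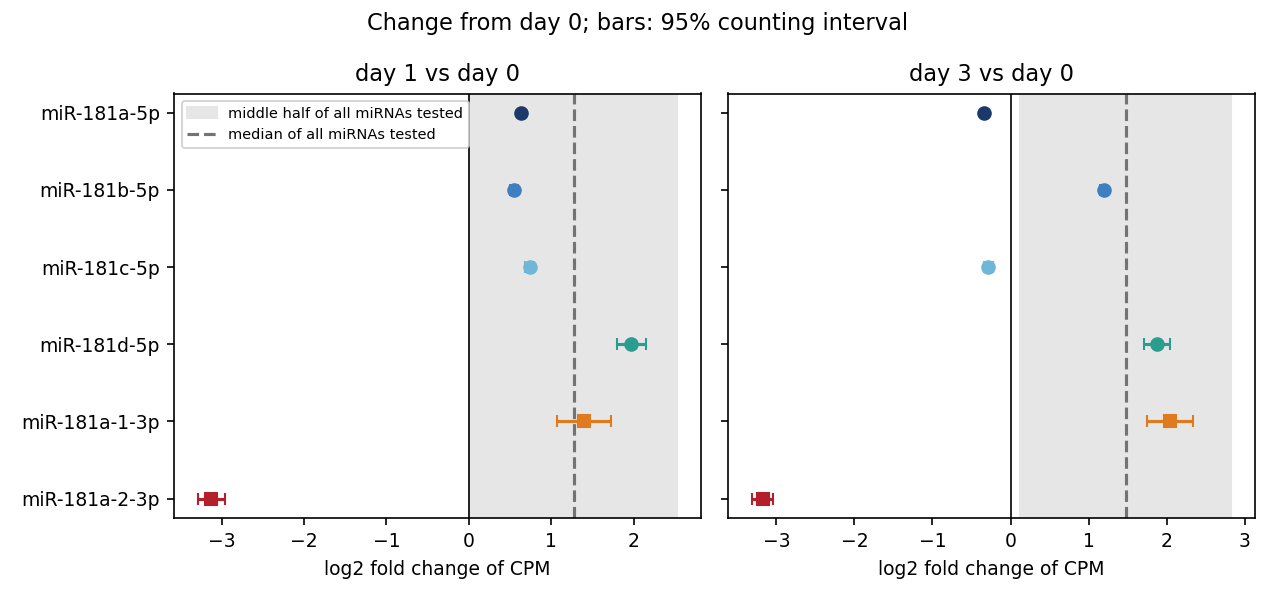
Log2 fold change of CPM against day 0 for each member on day 1 (left) and day 3 (right), with 95% counting intervals. The grey band runs from the lower to the upper quartile of all miRNAs tested and the dashed line is their median (1.28 on day 1 and 1.47 on day 3). miR-181a-2-3p lies far below the band on both days.

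Because the libraries as a whole shifted, these folds have to be read against all miRNAs. Of the miRNAs with at least 10 reads in either library, 67.3% differed at least 2-fold on day 1, that is 55.3% higher and 12% lower. Among the 6 members, 2 were higher by this rule on day 1 (miR-181d-5p and miR-181a-1-3p) and 1 was lower (miR-181a-2-3p). By day 3, 3 members were higher (the same ones with miR-181b-5p) and 1 was lower, against 68.5% of all miRNAs past 2-fold, 58.5% higher and 10% lower. From day 1 to day 3, 1 member was lower, against 42.7% of all miRNAs past 2-fold, 25% higher and 17.7% lower. The median log2 fold change of the members was 0.68 on day 1 and 0.45 on day 3, against 1.28 and 1.47 over all miRNAs tested. The members past 2-fold upwards were thus no larger a share than among all miRNAs, and the comparisons with day 0 share that library.

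**Figure D3:**
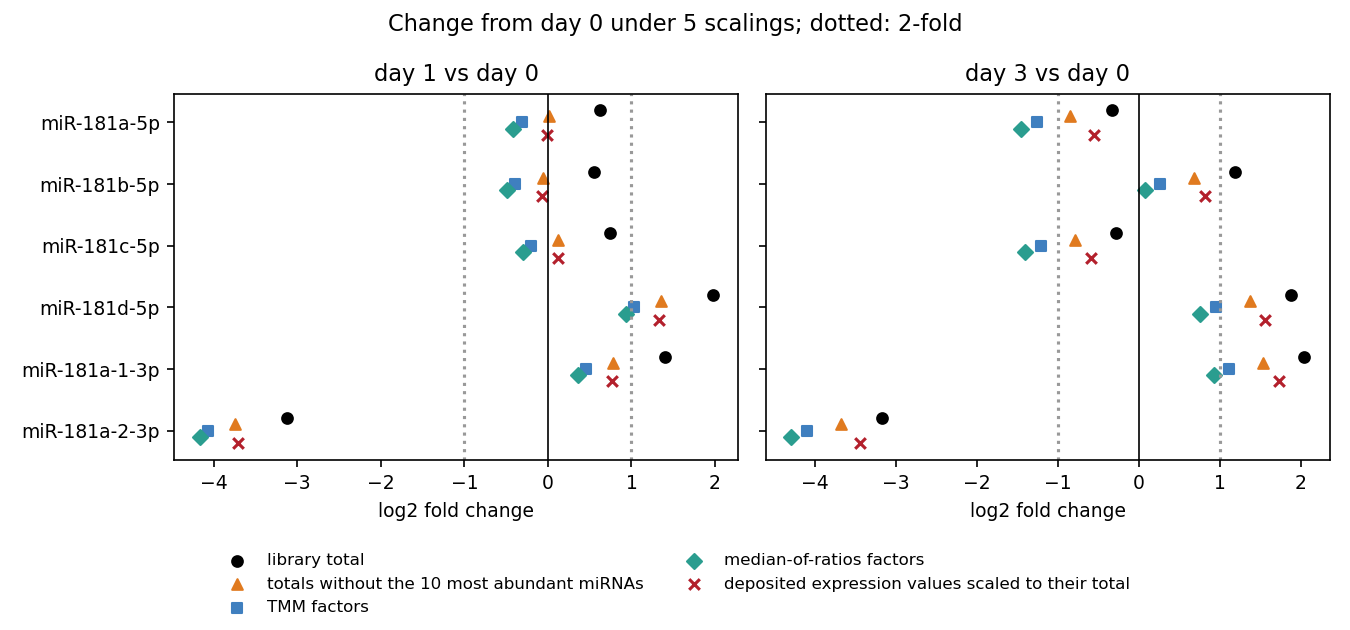
Log2 fold change against day 0 of each member on day 1 (left) and day 3 (right) when the libraries are scaled in 5 ways (library total, TMM, median-of-ratios, totals without the 10 most abundant miRNAs, and deposited expression values scaled to their own total), with dotted lines at a 2-fold change. Each scaling of the reads moves all members of a day by the same amount. miR-181a-2-3p lies between -4.16 and -3.12 on day 1 and between -4.29 and -3.17 on day 3, whereas miR-181a-5p, miR-181b-5p and miR-181c-5p have values on both sides of 0 on day 1.

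On day 1 the sign of the smaller changes depended on the scaling. With edgeR's TMM factors, which centre the bulk of the miRNAs, all log2 fold changes moved by -0.94 on day 1 and -0.93 on day 3, and the background became 35.2% higher and 24.2% lower on day 1 and 39.4% higher and 22.1% lower on day 3. From day 1 to day 3 the shift was 0.02, with 25.4% higher and 17.5% lower. miR-181a-5p was then at -0.32 on day 1 and -1.26 on day 3, and miR-181c-5p at -0.20 and -1.21. miR-181b-5p was at -0.39 and 0.27. miR-181d-5p stayed above 0 at 1.03 and 0.95, miR-181a-1-3p at 0.46 and 1.12, and miR-181a-2-3p was at -4.07 and -4.10. Beside each read count the authors deposited an expression value, a whole number never above the read count. How it was made, and whether it counts molecules rather than PCR copies, is not stated. On day 0 it was 55592 for the 87582 reads of miR-181a-5p and 114 for the 114 reads of miR-181a-1-3p, so the choice between both columns weighs on the members unequally. Scaled to their own total in each library, as the reads are, the expression values put miR-181a-5p at -0.011 on day 1 and -0.55 on day 3 and the summed 5p members at 0.0042 and -0.35. Taken as deposited, without any scaling to the library, they put miR-181a-5p at 0.21 and -0.036 and the sum at 0.23 and 0.17. Between the scaled and unscaled values, the sign thus turned for miR-181a-5p on day 1 and for the sum on day 3. It also turned for miR-181b-5p on day 1, at -0.077 scaled and 0.15 unscaled. By expression values, both 3p arms made up 6.52%, 0.868% and 1.86% of miR-181a for days 0, 1 and 3. Differences between members and shares of their reads do not change with the scaling of the reads.

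The shared 5p arm and its locus-specific partners were therefore compared within each library. Of the miR-181a reads, both 3p arms together made up 4.37% (4.24 to 4.51), 0.549% (0.505 to 0.596) and 1.28% (1.21 to 1.36) for days 0, 1 and 3. For each read of miR-181a-2-3p there were 22.5, 303 and 161 reads of miR-181a-5p. For miR-181a-1-3p these numbers were 768, 450 and 148, so that against day 0 it gained on the 5p arm while miR-181a-2-3p lost. From day 1 to day 3 miR-181a-2-3p also gained on the 5p arm, by 0.91 (0.71 to 1.11) on the log2 scale. The fold change of miR-181a-2-3p differed from that of miR-181a-5p by -3.75 on the log2 scale on day 1 (-3.91 to -3.59) and -2.84 on day 3 (-2.97 to -2.70). For miR-181a-1-3p the difference was 0.77 (0.45 to 1.10) for day 1 and 2.38 (2.09 to 2.67) for day 3.

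The locus from which the 3p reads came changed with it. On day 0, 2.85% of the miR-181a 3p reads (2.38 to 3.41) were from the chromosome 1 locus and the rest from chromosome 2. On day 1 the share of the chromosome 1 locus was 40.2% (36.3 to 44.3), and on day 3 it was 52.2% (49.1 to 55.2). Between days 0 and 1 both arms moved towards each other, and the smaller step to day 3 came with more reads of miR-181a-1-3p, at 55.2 against 35.4 CPM, and a level of miR-181a-2-3p whose intervals on these days overlapped.

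**Figure D4:**
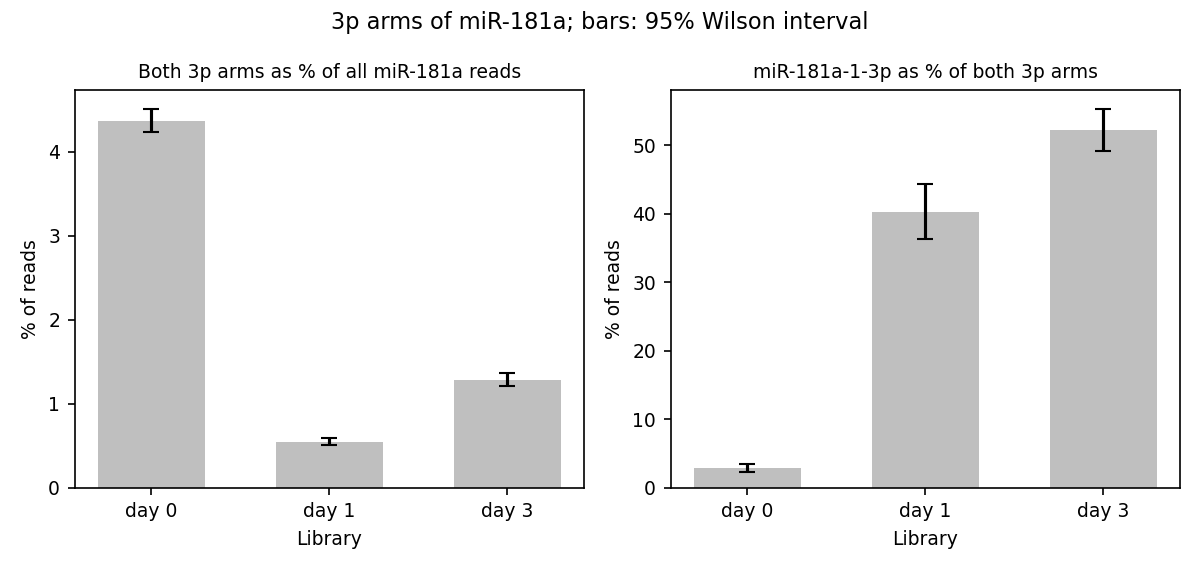
Left, both miR-181a 3p arms as a percentage of all miR-181a reads in each library. Right, miR-181a-1-3p as a percentage of the reads of both 3p arms. Error bars are 95% Wilson intervals. The 3p share is 4.37% on day 0 and at most 1.28% after injury, and the chromosome 1 share is 2.85% on day 0 and 52.2% on day 3.

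A change of the arm ratio was common in these libraries. The comparison with other hairpins was added after the values were seen. Left out were 3p arms shared by loci with separate 5p arms, such as miR-1a-3p and miR-24-3p. Names with the same reads, such as let-7a-1-3p and let-7c-2-3p, were counted separately. The comparison covers the remaining 3p miRNAs with at least 10 reads of both arms in both libraries. Each was set against its 5p arm, also where loci share that arm. Of 114 such miRNAs, 36% had a 3p-to-5p ratio that differed at least 2-fold on day 1, 18.4% with less 3p and 17.5% with more. miR-181a-2-3p ranked 4 from the lowest, and miR-181a-1-3p was not past 2-fold. By day 3, 47.9% of 119 ratios were past 2-fold, 24.4% with less 3p and 23.5% with more, and miR-181a-2-3p ranked 6 from the lowest and miR-181a-1-3p 10 from the highest. From day 1 to day 3, 38.4% of 146 ratios were past 2-fold, 19.9% with less 3p and 18.5% with more. There miR-181a-1-3p ranked 9 from the highest at a log2 change of 1.61, and miR-181a-2-3p was at 0.91. With at least 100 reads of each arm, 41 miRNAs remained for each day, of which 10 had less and 4 more 3p on day 1 and 12 less and 7 more on day 3, and miR-181a-2-3p ranked 2 from the lowest on both days. Thus miR-181a-2-3p was near the low end against day 0 on both days, and miR-181a-1-3p was towards the high end by day 3.

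**Figure D5:**
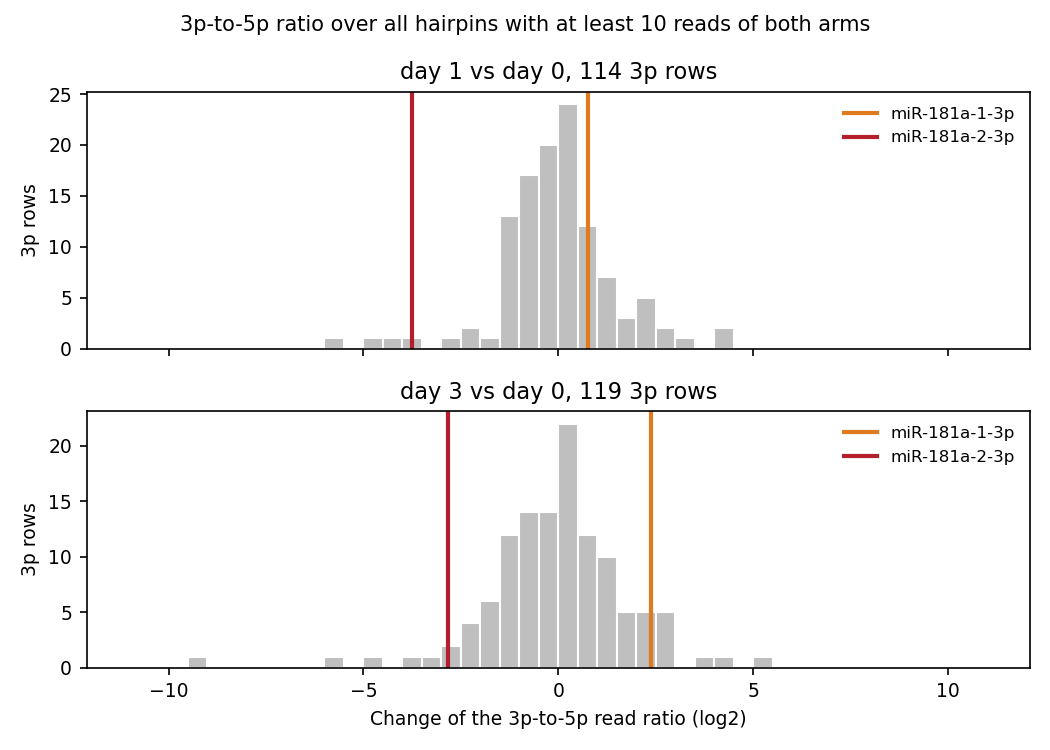
Histograms of the log2 change of the 3p-to-5p read ratio against day 0, on day 1 (top, 114 miRNAs of the 3p type) and day 3 (bottom, 119), in bins of 0.5. The lines mark miR-181a-1-3p (0.77 and 2.38) and miR-181a-2-3p (-3.75 and -2.84), which lie on opposite sides of the centre on both days.

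The remaining 3p arms of the family had few reads. miR-181c-3p had 8, 31 and 51 reads, with log2 fold changes of 2.36 (1.24 to 3.48) and 2.47 (1.39 to 3.54). Its share of the miR-181c reads was 0.174% (0.088 to 0.342), 0.531% (0.375 to 0.753) and 1.16% (0.884 to 1.52) for days 0, 1 and 3. On each day miR-181c-3p thus made up a small part of its pair, as miR-181a-1-3p did, with which it shares the seed. miR-181b-2-3p had 2, 1 and 4 reads, miR-181b-1-3p had 0, 0 and 1, and miR-181d-3p had 0, 2 and 0, so the locus of the miR-181b-5p reads could not be read from its 3p arms. A count of 0 allows up to 3 reads, which is 0.353, 0.467 and 0.306 CPM for days 0, 1 and 3.

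The miRNAs with the course most like the family were sought among 210 others with at least 100 reads in each library, by the distance between log2 CPM values centred over the 3 libraries. For the summed 5p members the nearest were miR-9b-3p (distance 0.13), miR-676-3p (0.15), miR-361-5p (0.15), miR-30b-5p (0.18) and miR-10b-5p (0.20). Of these, miR-30b-5p was at 2267, 3335 and 1702 CPM. For miR-9b-3p, 2 hairpins overlap Mir9-1 and Mir9-2 on the opposite strand, and whether strand was used in counting is not stated, so its identity is uncertain. For the summed 3p members, which on day 0 are mostly miR-181a-2-3p, the nearest were miR-1b-5p (0.40), miR-486a-3p (0.61), miR-1a-3p (0.61), miR-1a-1-5p (0.71) and miR-1843a-3p (0.74). miR-1a-3p, a muscle-specific miRNA of mature fibers, was at 233587, 73841 and 88096 CPM. Hairpin overlap was not examined for miR-1b-5p and miR-1a-3p, and whether their counts are independent of each other was not tested. With 3 libraries, such likeness is a description only.

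Marker miRNAs of the cell types in muscle also differed between the libraries. The 7 myofiber miRNAs summed to 27.4%, 9.17% and 27.8% of the reads for days 0, 1 and 3. Of the 6 tested on day 1, 5 were at least 2-fold lower than on day 0, and on day 3, 4 of 7 were lower and 2 higher, among them miR-206-3p of regenerating fibers at 180001 CPM. The sum on day 3 was mostly miR-206-3p. Of the others on the list, miR-1a-3p had log2 fold changes of -1.66 and -1.41 on days 1 and 3, miR-133a-3p of -1.08 and -1.82, miR-486a-5p of -1.26 and -1.46, and miR-499-5p of -0.78 and -1.98. These 4 were thus below day 0 on both days, as was miR-181a-2-3p. miR-133b-3p was at -2.33 and 0.41, and miR-208b-3p had 4, 1 and 10 reads. The 6 leukocyte miRNAs summed to 5149, 19499 and 7479 CPM. On day 0 this sum was mostly miR-150-5p, with 40266 of 43804 reads, which was at a log2 fold change of -0.57 on day 3, while the median of the list was 3.72 on day 1 and 3.40 on day 3. The endothelial pair summed to 59427, 132923 and 58732 CPM. The 3 erythroid miRNAs summed to 7145, 25335 and 12564 CPM. Scaled to library totals, these sums were highest on day 1, as was the sum of the miR-181 5p members, which with TMM or median-of-ratios factors was below day 0 on day 1, at -0.31 and -0.40. The 3 stromal miRNAs summed to 2020, 3692 and 6244 CPM, highest on day 3, as were miR-181b-5p and miR-181a-1-3p. The markers defining muscle were present in each library, and no listed marker was at 0. The part of these cell types in the changes of the miR-181 miRNAs was not tested.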

How the data were processed

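Small RNAs of 18 to 30 nucleotides from 3 pools of 4 TA samples went through BGISEQ sequencing. Clean reads were screened by the authors against GRCm38.p6, and the submitters' processing notes name HISAT and Bowtie2. The authors deposited a read count per mature miRNA, without normalization, and beside it an expression value. How the authors made this score before it was deposited is not stated. It was whole and never exceeded the read count, so whether it counts molecules and the reads include PCR copies is unknown. The files held 0 columns of other samples. The members and lists were chosen with earlier results of these data known.

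Read counts were divided by the library total. Fold changes carry 95% Wald intervals, and a count of 0 was set to 3 reads. With 1 library per day the conditions were not tested, and a miRNA counted as changed at a fold of 2 with at least 10 reads in either library. Intervals cover counting error only and take each read as independent. If the reads include PCR copies, the intervals are too narrow. Alternatives were TMM factors (edgeR 4.0.16), median-of-ratios factors (DESeq2 1.42.0), totals without the 10 most abundant miRNAs, the deposited expression values, a pseudocount of 1 CPM, other minimums of 1, 10 or 100 reads, folds of 1.5 and 4, and an added FDR of 0.001 by Fisher's exact test on the reads, which compares libraries, not conditions. Scaled expression values and the arm ratios of other hairpins, with minimums of 10 and 100 reads, were added after the data were seen. miRNAs were named by rule: the members, the other arms of their hairpins, marker lists, and the 5 nearest in course. Calculations ran in R 4.3.3 and Python 3.11.15 with pandas 2.3.3, numpy 2.4.6 and scipy 1.17.1, and figures in matplotlib 3.10.9. Sequences came from RefSeq, which had entries for all 6 members; the position of Mir181c came from GENCODE M21.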

Additional observations from a re-analysis of the deposited data

Results flagged for a closer look

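For 2 members the change against day 0 had opposite signs on the 2 days. The log2 fold change of miR-181a-5p was 0.63 on day 1 and -0.34 on day 3, and that of miR-181c-5p was 0.74 on day 1 and -0.29 on day 3. Each value rests on 1 library per day, the comparisons share the day 0 library, and the difference was not tested. With TMM or median-of-ratios factors both miRNAs were below day 0 on both days.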

How the results depend on the processing

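From library totals, the log2 fold changes on day 1, on day 3 and from day 1 to day 3 were 0.64, -0.16 and -0.80 for the summed 5p members and -2.42, -2.15 and 0.27 for the summed 3p members. TMM factors gave -0.31, -1.09 and -0.78 for the 5p sum and, on days 1 and 3, -3.37 and -3.08 for the 3p sum. Median-of-ratios factors gave -0.40, -1.28 and -0.88 for 5p and -3.46 and -3.27 for 3p. Leaving the 10 most abundant miRNAs out of the totals gave 0.021, -0.67 and -0.69 for 5p and -3.04 and -2.66 for 3p. The deposited expression values gave 0.23, 0.17 and -0.062 for 5p and -2.78, -1.91 and 0.87 for 3p, and scaled to their own total 0.0042, -0.35 and -0.35 for 5p and -3.01, -2.43 and 0.58 for 3p. The 5p sum thus changed sign with the scaling of the reads on day 1, and on day 3 it was above 0 only with the unscaled expression values. In the deposited expression values both 3p arms made up 6.52%, 0.868% and 1.86% of miR-181a on days 0, 1 and 3, and the value of miR-181a-5p was 63.5%, 63.0% and 67.9% of its read count.

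On day 1, 2 members were at least 2-fold higher. This was 1 with TMM factors, with totals without the 10 most abundant miRNAs and with the expression values, scaled or not, 0 with median-of-ratios factors or a fold of 4, and 4 with a fold of 1.5, at which 332 of the 532 miRNAs tested were also higher. Over all miRNAs, 227 were higher with totals without the 10 most abundant, 245 with unscaled and 219 with scaled expression values. On day 3, the 3 higher members became 1 with TMM factors or a fold of 4 and 0 with median-of-ratios factors. They became 2 with totals without the 10 most abundant miRNAs or with scaled expression values. Over all miRNAs, 283 and 299 were higher in these last settings. The 1 lower member became 3 with TMM or median-of-ratios factors, beside 126 and 141 of 569 miRNAs lower. From day 1 to day 3, the 1 lower member became 2 with median-of-ratios factors or a fold of 1.5 and 0 with a fold of 4, totals without the 10 most abundant miRNAs or the expression values, scaled or not. The 0 higher members became 2 with a fold of 1.5 or the unscaled expression values. Of the 583 miRNAs tested there, 192 were higher and 158 lower at a fold of 1.5 and 113 were lower with median-of-ratios factors. By the unscaled expression values 219 miRNAs were higher and 58 lower, and by the scaled ones 72 were lower. With totals without the 10 most abundant miRNAs, 96 were lower.

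Over the 532 miRNAs tested on day 1, 294 were higher and 64 lower, while TMM factors gave 187 and 129 and median-of-ratios factors 176 and 138. Over the 569 tested on day 3, 333 were higher and 57 lower, while TMM factors gave 224 and 126 and median-of-ratios factors 200 and 141. With a fold of 4 these counts were 180 and 12 on day 1 and 214 and 18 on day 3. With totals without the 10 most abundant miRNAs, 110 were lower on day 1 and 93 on day 3. With at least 100 reads, 152 were higher and 37 lower on day 1, and 195 were higher on day 3. With at least 10 reads in both libraries, 185 and 201 were higher. With scaled expression values 107 were lower on day 1, and with a fold of 1.5, 87 were lower on day 3. From day 1 to day 3, 146 were higher and 103 lower, against 72 and 34 with a fold of 4 and 87 and 52 with at least 100 reads. There, 93 were higher with at least 10 reads in both libraries and 58 lower with unscaled expression values. Adding Fisher's exact test moved none of these counts by over 1.5 times.

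Among single members, miR-181a-2-3p was at or below -3.10 on day 1 and at or below -2.94 on day 3 under each scaling, pseudocount or set of values run. With at least 1000 reads in each library, 3 of the 5 nearest miRNAs were shared for the 5p and for the 3p sums. The minimum does not alter the distances, so this shows only which of them had enough reads. No paired analysis was possible because each day has a single library. Of the 6 members miR-181a-1-3p, with 114 reads on day 0, had the widest intervals of the fold change.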
